A study of Homo sapiens with 48 samples.

Results

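Constitutive exons whose length is a multiple of 3 were examined in IMR90 ER:RAS cells after knockdown of SF3B1 or RBM39. An exon was a member if it was at least 28 and under 250 bases long, if its length was divisible by 3, if it had a percent spliced-in index (PSI) and a coverage score above the lowest class in all 48 libraries, and if its mean PSI over the 16 non-targeting siRNA (siNT) libraries was at least 95. The members were thus selected on siNT PSI, and 8160 exons in 3028 genes met the rule among 24757 cassette exons with PSI and coverage throughout. A comparison set of 11985 exons met the same rule with a length not divisible by 3, and these are called frame-shifting below, while the members are called in-frame.

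IMR90 is an established line of human lung fibroblasts, and the ER:RAS derivative carries RAS G12V fused to the ligand-binding part of the oestrogen receptor, so that all 6 groups share this transgene. Cells received 4OHT, which activates the fusion, or the solvent DMSO for 6 days, were then transfected with siRNA, and were kept for 2 days in 0.5% serum. Each target was hit by 2 siRNAs (siNT1 and siNT2, siSF3B1-13 and siSF3B1-16, siRBM39-06 and siRBM39-08), each with 4 replicates per treatment, giving 6 groups of 8 libraries. The labels of 4 4OHT siNT libraries name siNT2 in the title and siNT1 elsewhere, and these were taken as siNT2. The labels do not say whether replicates came from separate cultures. The study's methods describe its in vitro replicates as independent experiments, but give another number of replicates for this experiment than the labels, which were followed here. The p-values measure the spread between these libraries.

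SF3B1 is a core part of the U2 snRNP, which recognises the branch point upstream of an exon, and RBM39 is a U2AF65-related protein that takes part in the recognition of splice sites. An internal exon is spliced in when its flanking sites are paired across it, and loss of recognition joins its neighbours directly. When the length of the skipped exon is a multiple of 3, the downstream codons keep their frame and the transcript encodes a shorter protein. When it is not, the frame shifts and usually meets an early stop codon, which makes a transcript a substrate of nonsense-mediated decay.

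Libraries held between 31467221 and 52734636 counts on genes. The targeted genes were low where their siRNA was used: SF3B1 was at or below 35.2 CPM in siSF3B1 libraries and at or above 311 CPM in siNT, and RBM39 was at or below 30.96 CPM in siRBM39 libraries and at or above 115 CPM in siNT. All 9 fibroblast markers examined, COL1A1, COL1A2, COL3A1, COL6A1, PDGFRB, THY1, VIM, DCN and LUM, were at 10.6 cRPKM or more in every library, whereas CDH1, CDH5, PTPRC and CD3E stayed at or below 0.19 cRPKM. Among the other markers, CD68 lay between 21.1 and 66.1 cRPKM and KRT19 reached 18.8 cRPKM. One library, replicate 4 of siRBM39-08 in 4OHT, lay far from its group in several gene counts, and results that rest on it are given with and without it.

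The in-frame exons were ordinary internal coding exons. Their median length was 117 bases, from 30 to 249, and 1748 of the 3028 genes held at least 2 of them. COL5A1 held most, with 51, followed by COL1A1 with 42 and COL1A2 with 38, collagen genes being built of many short exons that encode repeats of the triple helix. The reads behind a PSI value averaged 117.5 per library for the median exon, and the 5th percentile was 47.4. Of all members, 4957 had a mean siNT PSI of 100, and 2677 stood at 100 in each of the 48 libraries. The members closest above the limit of 95 were exons of PDHX (95.05), PALLD (95.05) and DSCR3 (95.06), and the closest below it were exons of LRRFIP2 (94.90), ZC3H7B (94.98) and HM13 (94.99).

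Matching each exon by chromosome, strand and the lengths of the exon and both flanking introns placed 7725 members (94.7%) in the GENCODE annotation of GRCh37. Of these, 7551 were wholly coding, 124 partly coding, 34 in noncoding transcripts, 10 in a 5′ untranslated region and 6 in a 3′ untranslated region. An upstream AG was present at 7724 of these exons, and the downstream intron began with GT at 7667 and with GC at 49. Among 7457 coding members with a complete open reading frame, 4648 (62.3%) began between codons, 1915 (25.7%) after the first base and 894 (11.99%) after the second base of a codon. Joining the neighbours of the exon created a stop codon at the junction for 49 of the 7457 members (0.657%). For frame-shifting exons the shifted frame held a stop codon within the remaining coding sequence in 10309 of 10780 cases (95.6%).

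Some exons with large differences in inclusion from siNT, between the knockdowns or between the treatments are shown here as examples. Other exons with differences as large are described below without a sequence. Sequences are from GRCh37 and run 5′ to 3′ on the transcribed strand, with the exon in capitals and 30 bases of the upstream and 10 bases of the downstream intron in lower case.
HERPUD1: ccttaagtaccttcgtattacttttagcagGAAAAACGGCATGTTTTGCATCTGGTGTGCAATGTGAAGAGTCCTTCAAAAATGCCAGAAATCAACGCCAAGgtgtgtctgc
TIAL1: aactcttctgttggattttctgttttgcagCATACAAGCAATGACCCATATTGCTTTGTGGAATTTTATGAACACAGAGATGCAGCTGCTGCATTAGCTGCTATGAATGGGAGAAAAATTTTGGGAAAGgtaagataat
NAV1: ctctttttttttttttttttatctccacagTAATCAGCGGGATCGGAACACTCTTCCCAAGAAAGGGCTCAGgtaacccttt
PSMA4: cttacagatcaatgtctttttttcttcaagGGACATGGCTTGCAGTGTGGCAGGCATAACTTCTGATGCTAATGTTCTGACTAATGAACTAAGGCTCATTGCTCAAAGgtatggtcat
TBC1D23: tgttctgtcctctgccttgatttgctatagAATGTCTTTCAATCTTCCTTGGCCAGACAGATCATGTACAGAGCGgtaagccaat
SRRT: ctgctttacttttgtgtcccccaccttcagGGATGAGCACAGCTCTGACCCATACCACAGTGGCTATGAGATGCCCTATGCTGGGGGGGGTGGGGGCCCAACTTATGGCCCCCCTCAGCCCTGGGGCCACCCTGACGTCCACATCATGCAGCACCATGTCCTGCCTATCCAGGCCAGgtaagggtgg
STAMBPL1: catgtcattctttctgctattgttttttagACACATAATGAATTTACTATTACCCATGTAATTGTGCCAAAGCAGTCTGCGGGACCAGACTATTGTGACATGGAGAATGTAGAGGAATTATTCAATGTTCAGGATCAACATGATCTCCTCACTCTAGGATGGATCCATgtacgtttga
PLOD2: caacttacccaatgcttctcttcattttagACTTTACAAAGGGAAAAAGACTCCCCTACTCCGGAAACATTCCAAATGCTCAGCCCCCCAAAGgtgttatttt

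The HERPUD1 exon lies at chr16:56969316-56969387 on the plus strand, is exon 3 of 8 and encodes 24 of 390 residues. The TIAL1 exon (chr10:121341971-121342069, minus strand, exon 3 of 12) encodes 33 of 375 residues, and the NAV1 exon (chr1:201754438-201754479, plus strand, exon 12 of 34) encodes 14 of 2164. The PSMA4 exon (chr15:78836532-78836609, plus strand, exon 5 of 9) encodes 26 of 261 residues. The TBC1D23 exon (chr3:100030677-100030721, plus strand, exon 15 of 19) encodes 15 of 699 residues, and the SRRT exon (chr7:100479280-100479426, plus strand, exon 4 of 20) encodes 49 of 876. The STAMBPL1 exon (chr10:90676437-90676574, plus strand, exon 8 of 11) encodes 46 of 436 residues, and the PLOD2 exon (chr3:145795649-145795711, minus strand, exon 14 of 20) encodes 21 of 758. All 8 are coding, and none creates a stop codon at its new junction.

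Across all 8160 in-frame exons, inclusion was lower in each siSF3B1 library than in any siNT library. Mean PSI per library lay from 99.75 to 99.77 in DMSO siNT, with a median of 99.76, and from 99.72 to 99.74 in 4OHT siNT, with a median of 99.73. It lay from 98.06 to 98.56 (median 98.37) in DMSO siSF3B1 and from 97.70 to 98.24 (median 97.98) in 4OHT siSF3B1. In DMSO siRBM39 it lay from 99.45 to 99.52 (median 99.49), and in 4OHT siRBM39 from 99.37 to 99.40 (median 99.39). Within each treatment the 3 groups did not overlap, and the order from high to low was siNT, siRBM39 and siSF3B1. The siSF3B1 groups of both treatments overlapped with both siRNAs pooled, whereas those of siNT and siRBM39 did not. Within each siSF3B1 siRNA the treatments were separate. For siSF3B1-13 the ranges were 98.06 to 98.26 in DMSO and 97.70 to 97.80 in 4OHT, and for siSF3B1-16 they were 98.48 to 98.56 and 98.15 to 98.24. The siSF3B1 libraries fell into separate ranges by siRNA, with means of 98.17 ± 0.0874 (SD, n = 4) for siSF3B1-13 and 98.53 ± 0.0355 for siSF3B1-16 in DMSO, and 97.75 ± 0.0409 and 98.21 ± 0.0390 in 4OHT. Because siNT PSI chose the members, the distance from siNT is a description. As the RNA came from bulk cultures, a change in which cells contribute and a change in the RNA per cell cannot be told apart.

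**Figure D1:**
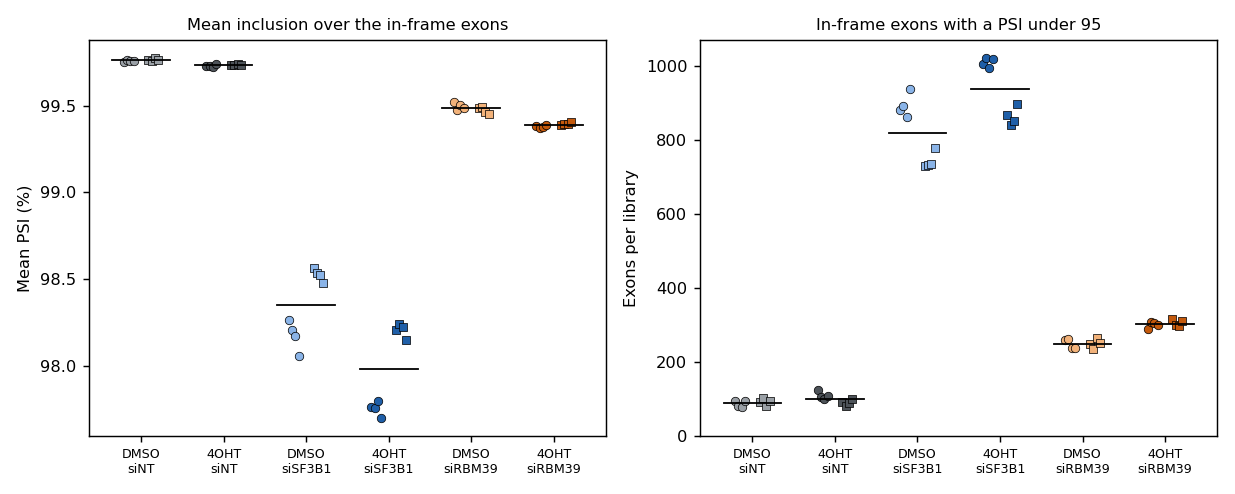
Mean PSI over the 8160 in-frame exons (left, percent) and the number of them with a PSI under 95 (right) in each of the 48 libraries; circles and squares are the 2 siRNAs of a target and bars are group means of 8 libraries. The siSF3B1 libraries sit lowest, between 97.70 and 98.56, and the siRBM39 libraries lie between them and siNT.

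The shift was carried by a minority of exons. A library of 4OHT siNT had 80 to 124 in-frame exons with a PSI under 95 (median 99.5), a library of 4OHT siRBM39 had 288 to 315 (median 302), and a library of 4OHT siSF3B1 had 841 to 1023 (median 947.5). Exons with a PSI under 50 numbered 5 to 20 per library in 4OHT siSF3B1 and at most 1 in 4OHT siRBM39, and there were 0 in the siNT libraries. After siSF3B1 in 4OHT, the mean PSI of 7368 members was less than 5 points below siNT, that of 532 members was 5 to 15 points below, that of 198 was 15 to 30 points below and that of 62 was 30 or more points below. After siRBM39 in 4OHT the same classes held 8001, 138, 18 and 3 exons. The median difference over all members was 0 points in both.

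An exon was called when limma on the logit of PSI gave an adjusted p under 0.05 and the mean PSI differed by at least 5 points, over 16960 cassette exons that were not constant, of which 5483 were members. In 4OHT, 778 members (14.2% of those tested) were lower after siSF3B1 than in siNT, beside 12.9% of all exons tested, and 1 member was higher. In DMSO, 665 (12.1%) were lower, beside 11.5%. After siRBM39, 141 (2.57%) were lower in 4OHT beside 3.52%, and 102 (1.86%) in DMSO beside 3.04%. Since the choice of members used siNT PSI and leaves room for little but a fall, nothing is read from these shares. Frame-shifting exons gave 933 lower calls of 7502 tested (12.4%) after siSF3B1 in 4OHT and 159 (2.12%) after siRBM39 in 4OHT.

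Members were also selected on the siNT1 libraries alone and compared with the siNT2 libraries, whose PSI level then had no part in the choice. Of 5397 such members tested, 743 were lower after siSF3B1 in 4OHT and 637 in DMSO, beside 2055 and 1831 of all 16717 exons tested. After siRBM39, 115 and 91 members were lower, beside 494 and 445 of all exons tested. These members, too, had room for little but a fall. Each siSF3B1 siRNA alone gave 857 (siSF3B1-13) and 671 (siSF3B1-16) lower calls in 4OHT, beside 2387 of 16116 and 1934 of 15830 exons tested. Of these members 616 were shared, making 71.9% and 91.8% of the respective lists. For siRBM39 the numbers were 124 (siRBM39-06) and 115 (siRBM39-08), beside 530 of 16663 and 506 of 16583 exons tested. Here 83 members were shared, or 66.9% and 72.2% of the lists. Both siRNAs of a target were compared with the same siNT libraries. The DMSO and 4OHT differences have no library in common, although their estimate of the spread comes from the same fit. After siSF3B1, 600 members were lower in both, which is 90.2% of the DMSO list and 77.1% of the 4OHT list. For siRBM39, 76 were lower in both, 74.5% and 53.9% of the lists. Shared calls were counted for members alone, so nothing particular to in-frame exons is read from them.

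HERPUD1 held the exon with the largest fall after siSF3B1 in 4OHT. It encodes a ubiquitin-like membrane protein of the endoplasmic reticulum that is induced by stress in that organelle. Its 72-base exon had a PSI of 97.5 to 100 (median 100) in 4OHT siNT, 13.3 to 32.2 (median 23.995) in 4OHT siSF3B1 and 90.9 to 100 (median 98.0) in 4OHT siRBM39. The siSF3B1 libraries were all low and did not overlap the others, whereas siRBM39 overlapped siNT. Means were 99.7 ± 0.894, 23.3 ± 5.75 and 96.8 ± 3.73 (SD, n = 8). The 33-base exon of TRIM27, a ubiquitin ligase, had a PSI of 95.6 to 100 (median 100) in 4OHT siNT, 22.7 to 36.5 (median 29.5) in 4OHT siSF3B1 and 70.9 to 91.3 (median 84.4) in 4OHT siRBM39. In SP100, a scaffold of nuclear bodies, an 84-base exon had 90.9 to 100 (median 97.7), 23.8 to 30.3 (median 26.4) and 57.2 to 80.4 (median 74.5) in the same groups. For both exons the 3 groups were separate, with siRBM39 between siNT and siSF3B1.

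TIAL1 encodes an RNA-binding protein that itself acts in alternative splicing and in stress granules. Its 99-base exon stood at 98.2 to 100 (median 99.4) in 4OHT siNT, 32.7 to 57.9 (median 45.9) in 4OHT siSF3B1 and 94.8 to 100 (median 98.6) in 4OHT siRBM39. Again siSF3B1 stood alone and siRBM39 overlapped siNT. PSMA4 encodes an alpha subunit of the 20S proteasome, and its 78-base exon stood at 91.2 to 100 (median 100), 43.3 to 61.2 (median 53.3) and 83.6 to 97.6 (median 93.1). The 66-base exon of ZFAND3, a zinc-finger protein, stood at 93.5 to 98.4 (median 97.2), 44.6 to 57.1 (median 50.1) and 80.2 to 89.5 (median 87.0). The siSF3B1 libraries were lowest in both genes without overlap. A 111-base exon of SLC35F6, listed in the files as C2orf18, a transporter-like membrane protein, stood at 91.8 to 98.0 (median 96.5), 44.6 to 63.4 (median 49.1) and 84.2 to 97.2 (median 90.9). A 42-base exon of NAV1, a cytoskeleton-associated protein, completes the 8 largest and is described with the treatments below.

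**Figure D2:**
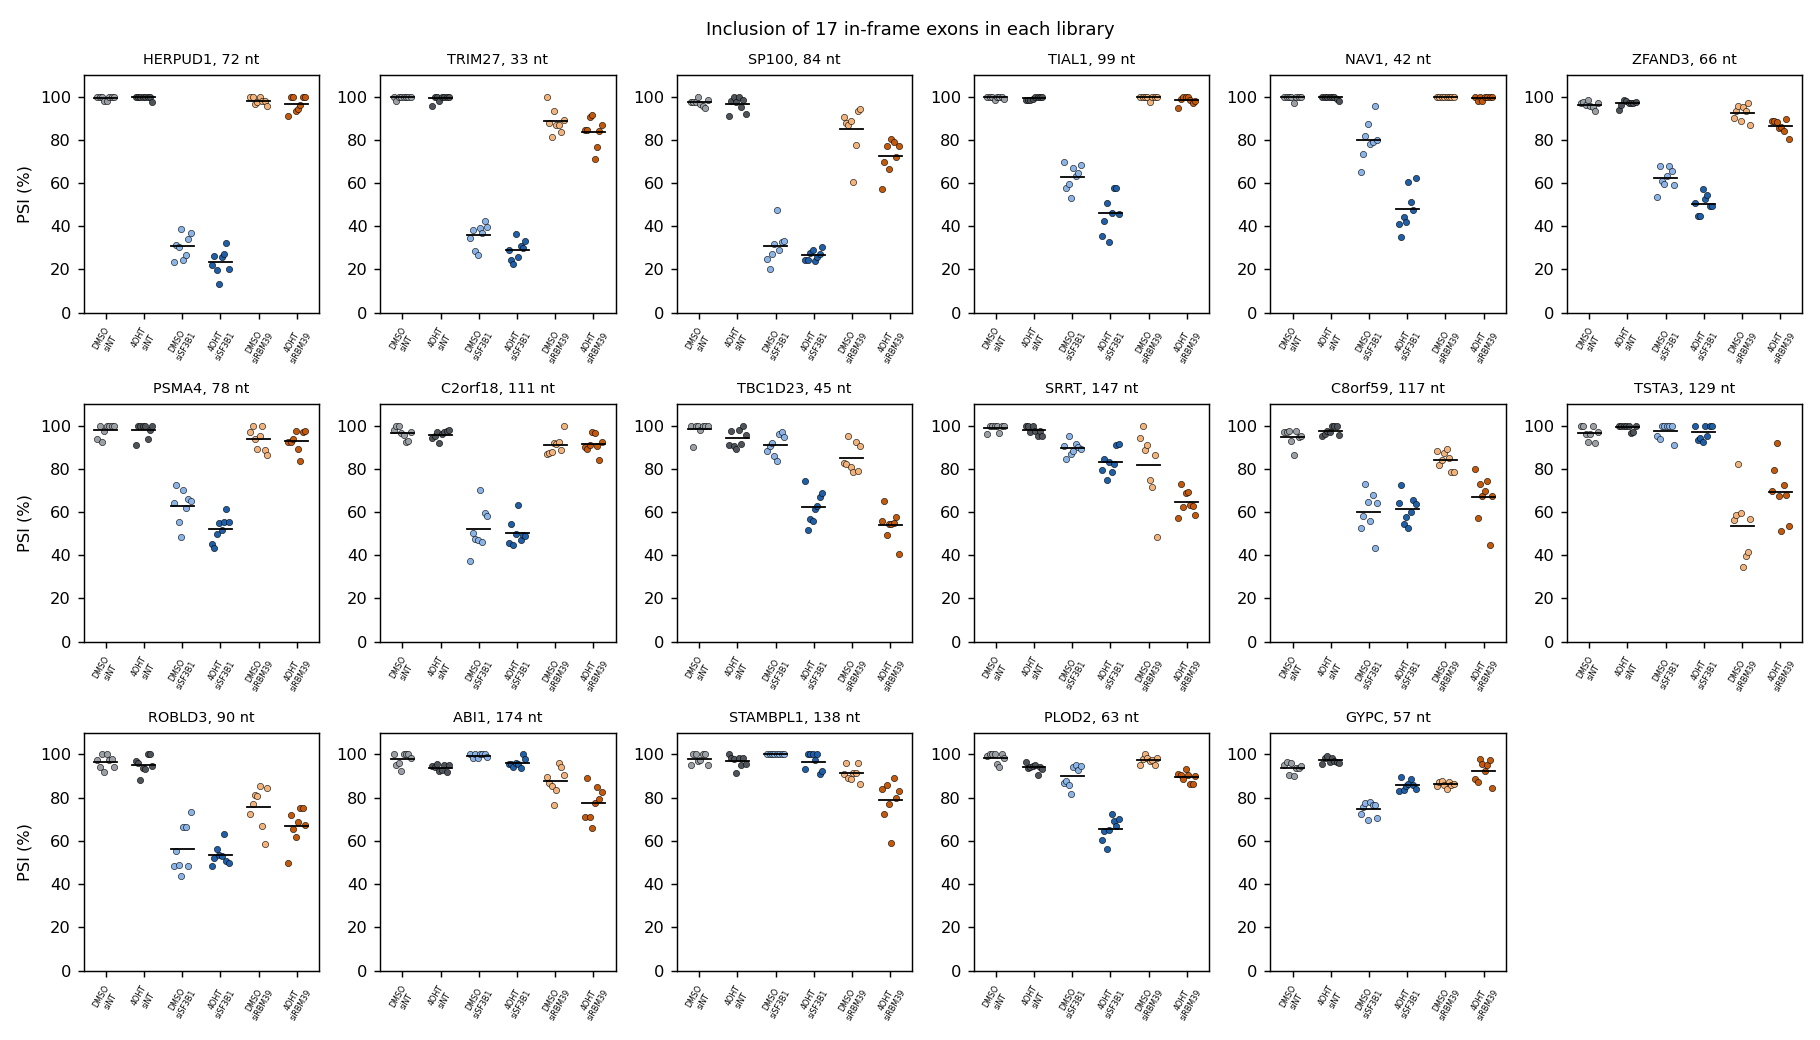
PSI (percent) of 17 in-frame exons in each of the 48 libraries by group; points are libraries and bars are means of 8. HERPUD1, TRIM27 and SP100 lie under 50 in all 16 siSF3B1 libraries, TSTA3 is low in siRBM39 alone, and NAV1, TBC1D23 and PLOD2 are lower in 4OHT than in DMSO after siSF3B1.

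The largest falls after siRBM39 were smaller. TBC1D23, an adaptor that captures vesicles at the Golgi, had a 45-base exon at 89.2 to 100 (median 93.6) in 4OHT siNT, 51.8 to 74.1 (median 62.0) in 4OHT siSF3B1 and 40.5 to 65.2 (median 54.8) in 4OHT siRBM39. Both knockdowns were below siNT and overlapped each other. In SRRT, a partner of the nuclear cap-binding complex, a 147-base exon lay at 95.03 to 100 (median 97.5), 74.8 to 91.2 (median 82.6) and 57.4 to 73.0 (median 62.8) in these groups. SRRT was thus lowest after siRBM39 without overlap. An exon of TSTA3, also known as GFUS, which makes GDP-fucose, lay at 96.4 to 100 (median 100) in 4OHT siNT, 92.6 to 100 (median 97.5) in 4OHT siSF3B1 and 51.4 to 91.8 (median 68.7) in 4OHT siRBM39. The siSF3B1 values overlapped siNT, and siRBM39 alone stood low. Exons of LAMTOR2 (listed as ROBLD3), part of the Ragulator on lysosomes, and of RBIS (listed as C8orf59), a ribosome biogenesis factor, had mean PSI of 67.0 ± 8.30 and 66.7 ± 10.996 (SD, n = 8) in 4OHT siRBM39 and 53.4 ± 4.65 and 61.3 ± 6.503 in 4OHT siSF3B1.

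Direct comparison of the knockdowns takes its differences from no siNT library. The spread behind its adjusted p-values came from a single fit of all 48 libraries, siNT included. The siNT libraries, whose PSI chose the members, thus have a part in these p-values. The siSF3B1 and siRBM39 libraries entered the choice of members through the need for a PSI and coverage, not through the level of PSI. In 4OHT, 642 members were lower and 23 higher in siSF3B1 than in siRBM39, beside 10.3% and 1.35% of all exons tested, and 382 and 8 of them did not overlap between the 8 and 8 libraries. In DMSO, 556 were lower and 19 higher, beside 9.12% and 1.3%, with 323 and 7 without overlap. The counts without overlap were taken for members alone, so nothing particular to in-frame exons is read from them. The share of tested members was 11.7% lower and 0.419% higher in 4OHT. The HERPUD1 exon was 73.5 points lower in siSF3B1 than in siRBM39 in 4OHT (limma, adjusted p = 3.66e-17) and 67.5 points lower in DMSO (adjusted p = 1.99e-16). TRIM27 differed by −54.6 points (adjusted p = 4.83e-10), TIAL1 by −52.2 points (adjusted p = 4.91e-19) and NAV1 by −51.5 points (adjusted p = 2.67e-20) in 4OHT.

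Exons that were higher in siSF3B1 than in siRBM39 were few. TSTA3 was 27.7 points higher in 4OHT (adjusted p = 2.16e-06) and 43.9 points higher in DMSO (adjusted p = 3.32e-09). ABI1, a subunit of the actin-regulating WAVE complex, had a 174-base exon at 93.9 to 100 (median 95.6) in 4OHT siSF3B1 and 65.8 to 89.0 (median 78.5) in 4OHT siRBM39. The groups were separate, and the difference was 18.4 points (adjusted p = 1.51e-06) in 4OHT and 11.7 points (adjusted p = 2.18e-08) in DMSO. STAMBPL1, a deubiquitinase, had a 138-base exon at 90.9 to 100 (median 98.7) in 4OHT siSF3B1 and 59.0 to 89.3 (median 81.6) in 4OHT siRBM39. The groups were again separate, with a difference of 17.9 points (adjusted p = 7.89e-07). The SRRT exon was 18.7 points higher in siSF3B1 than in siRBM39 in 4OHT (adjusted p = 0.0382), but without replicate 4 of siRBM39-08 the difference of 17.9 points no longer passed (adjusted p = 0.0603). In DMSO it was 7.60 points (adjusted p = 0.803), and there the siRNAs differed, with a mean PSI of 93.4 for siRBM39-06 and 70.3 for siRBM39-08. TBC1D23 did not pass between the knockdowns, with 8.16 points in 4OHT (adjusted p = 0.484).

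**Figure D3:**
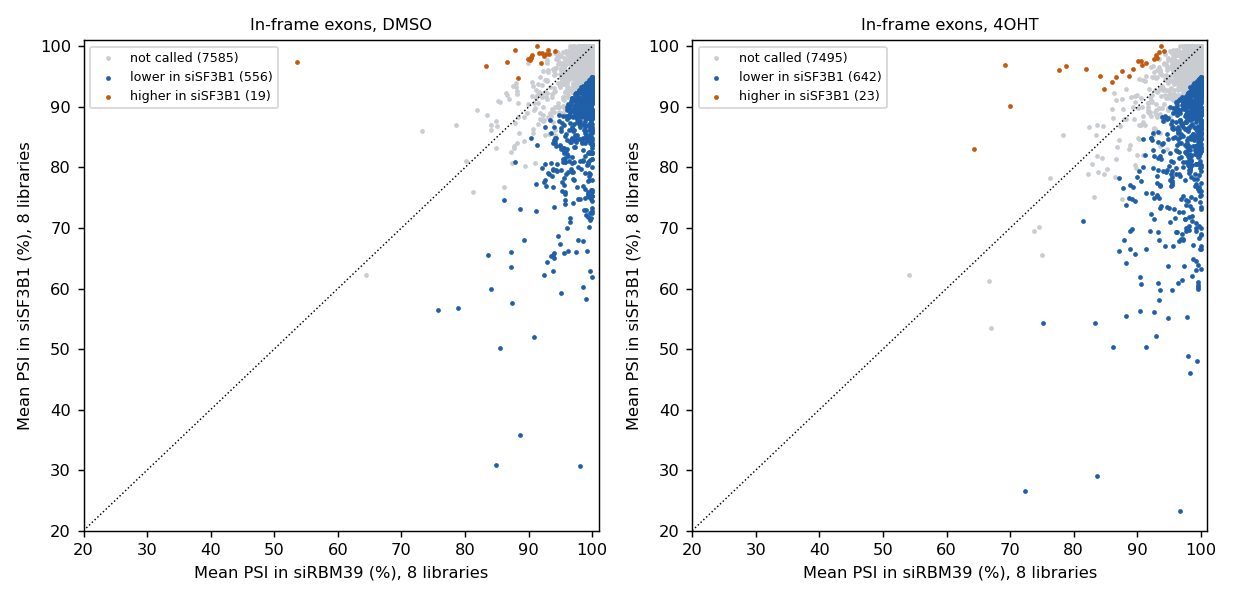
Mean PSI (percent, 8 libraries) of each of the 8160 in-frame exons in siSF3B1 against siRBM39, in DMSO (left) and 4OHT (right), with called exons coloured and the dotted line marking equality. Most called exons lie below the line, 642 in 4OHT, and 23 lie above it.

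Treatment was compared within each knockdown, where siNT again entered the estimate of the spread but not the differences. After siSF3B1, 89 members were lower and 8 higher in 4OHT than in DMSO, beside 1.65% and 0.295% of all exons tested, or 1.62% and 0.146% of tested members. The count of lower members was 54 without replicate 1 and 182 without the logit, beside 205 and 513 of all exons tested. After siRBM39, 18 members (0.328% of those tested) were lower in 4OHT than in DMSO, beside 0.637%, and 2 (0.0365%) were higher, beside 0.183%. The lower count was 6 without replicate 3 and 28 without the logit, beside 67 and 134 of all exons tested. The 2 higher exons were those of GYPC and NTAN1, an amidase of N-terminal asparagine, the latter named after its values were seen. NTAN1 had a mean PSI of 64.4 ± 5.14 in DMSO siRBM39 and 81.5 ± 6.29 in 4OHT siRBM39 (SD, n = 8; limma, adjusted p = 0.0126). Neither was called without replicate 3. The NAV1 exon had a PSI of 65.1 to 95.7 (median 79.4) in DMSO siSF3B1 and 35.04 to 62.3 (median 45.7) in 4OHT siSF3B1. Groups did not overlap, and the difference was −32.1 points (limma, adjusted p = 9.54e-06). In siNT the same exon had means of 99.6 ± 1.04 in DMSO and 99.6 ± 0.785 in 4OHT (SD, n = 8), and in siRBM39 it stood at 100 in all DMSO libraries and at 99.5 ± 1.00 in 4OHT.

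The TBC1D23 exon had 83.7 to 97.1 (median 91.1) in DMSO siSF3B1 and 51.8 to 74.1 (median 62.0) in 4OHT siSF3B1, a difference of −28.7 points (adjusted p = 9.71e-05) without overlap. After siRBM39 it differed by −31.0 points between treatments (adjusted p = 0.00129). PLOD2, a lysyl hydroxylase that prepares collagen for cross-linking, had a 63-base exon at 81.6 to 95.3 (median 90.2) in DMSO siSF3B1 and 56.4 to 72.5 (median 66.0) in 4OHT siSF3B1. The groups were separate, with −24.2 points (adjusted p = 1.54e-05), and after siRBM39 the difference was −7.80 points (adjusted p = 0.000469). In siNT, mean PSI was 98.4 ± 2.27 in DMSO and 94.1 ± 1.64 in 4OHT. One exon alone met the rule for naming in the other direction. A 57-base exon of GYPC, a membrane sialoglycoprotein, had 69.7 to 77.9 (median 76.0) in DMSO siSF3B1 and 83.1 to 89.4 (median 85.5) in 4OHT siSF3B1, which was 11.1 points higher (adjusted p = 0.0161) without overlap. After siRBM39 it was 6.19 points higher in 4OHT (adjusted p = 0.0155).

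Skipped members tended to be shorter and poorer in GC than members that kept their inclusion. Across the classes of fall after siSF3B1 in 4OHT, from under 5 points to 30 points or more, median exon length was 117, 96, 93 and 81 bases. Median GC content of the exon was 52.0%, 47.98%, 46.7% and 44.7%, over the 7016, 468, 183 and 58 members matched to the annotation. The intron before the exon had median lengths of 1064, 1175, 1519 and 1421 bases, and the share of pyrimidines in the 20 bases that end 3 bases before the exon had medians of 75%, 75%, 70% and 70%. Quartiles overlapped widely, with exon lengths of 87 to 153 bases in the lowest class and 60 to 105 in the highest. Spearman correlation across exons between the fall and exon length was −0.19 (n = 8160) after siSF3B1 in 4OHT and −0.04 after siRBM39, and with GC content it was −0.16 (n = 7725) and −0.01. With siNT PSI, on which the members were selected and from which the fall is measured, it was larger in size, at −0.38 and −0.14. With the length of the upstream intron it was 0.11 and 0.02, and with that of the downstream intron 0.17 and 0.03. These are descriptions across exons of shared libraries and genes. Median siNT PSI was 100 in the lowest and 99.3 in the highest class, and the median reads per library were 119 and 98.4.

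**Figure D4:**
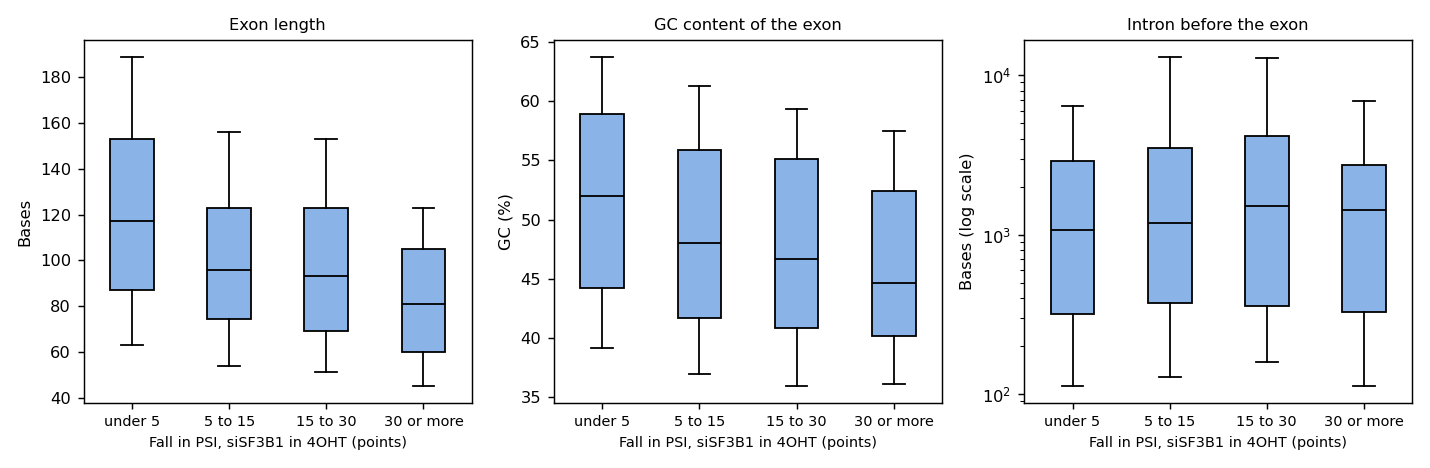
Exon length (bases), GC content of the exon (percent) and length of the intron before it (bases, log scale) by fall in mean PSI after siSF3B1 in 4OHT; boxes are quartiles, lines medians and whiskers the 10th and 90th percentiles over exons. Median length declines from 117 to 81 bases and median GC from 52.0% to 44.7%.

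The codon position of skipped members was close to that of all members. Among 665 coding members with a complete reading frame that were lower after siSF3B1 in 4OHT, 62.0% began between codons, 26.02% after the first and 12.03% after the second base, beside 62.3%, 25.7% and 11.99% of all. Skipping would remove a median of 32 residues, or 5.59% of the encoded protein, and would create a stop codon at the junction in 3 of the 665 (0.451%).

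Skipping of in-frame exons was then related to the count of the gene. The rule did not use gene counts, but its need for coverage in all 48 libraries can leave out genes with few reads after a knockdown. The part of this filter in the relation was not tested. Of the 3028 genes, 3007 were matched by name to tested gene counts. Over all 9991 genes tested with edgeR, 37.6% were called lower and 39.4% higher after siSF3B1 in 4OHT, 36.2% and 36.5% in DMSO, 24.3% and 32.2% after siRBM39 in 4OHT, and 22.2% and 23.9% in DMSO. Median log2 fold changes over all genes were 0.03, 0.02, 0.05 and 0.02 in the same order. Among 653 tested genes with a member called lower after siSF3B1 in 4OHT, 238 (36.4%) were lower and 250 (38.3%) higher in count, with a median log2 fold change of 0.02. In DMSO, 173 (29.98%) of 577 such genes were lower and 246 (42.6%) higher, with a median of 0.08. For siRBM39, 38 (29.2%) of 130 genes with a called member were lower and 27 (20.8%) higher in 4OHT, and 30 (30.9%) of 97 were lower and 16 (16.5%) higher in DMSO. Over the 3007 genes the shares were 23.4% and 30.1% in 4OHT, and 19.7% and 27.1% in DMSO.

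For in-frame exons after siSF3B1, the gene count differed little between classes of skipping. The falls are measured from the siNT libraries that chose the members, and the classes are a description. When genes were classed by the largest fall among their members in 4OHT, the median log2 fold change was 0.02 in 2347 genes under 5 points, 0.02 in 425 genes at 5 to 15 points, 0.01 in 176 genes at 15 to 30 points and 0.03 in 59 genes at 30 points or more. In the last class 15 genes (25.4%) were lower and 24 (40.7%) higher in count. Computed per library against the siNT mean, the median of the 59 genes lay between 0.03 and 0.08 in the 8 siSF3B1 libraries. Spearman's rho across the 3007 genes was −0.01 in 4OHT and 0.03 in DMSO, and per library it ranged from −0.021 to 0.00070 in 4OHT. Genes are not independent replicates, and all share the same libraries.

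Frame-shifting exons gave another pattern in the same libraries. After siSF3B1 in 4OHT, the median log2 fold change was 0.05 in 2954 genes whose frame-shifting exons fell by less than 5 points, −0.12 in 529 genes at 5 to 15 points, −0.17 in 154 genes at 15 to 30 points and −0.09 in 65 genes at 30 points or more. Among the 748 genes at 5 points or more, 360 (48.1%) were lower and 227 (30.3%) higher, beside 243 (36.8%) lower and 250 (37.9%) higher among 660 genes with an in-frame fall of that size. Spearman's rho was −0.17 over 3702 genes in 4OHT and −0.12 in DMSO. Leaving out genes in which a frame-shifting exon fell by 5 points or more, 507 genes with an in-frame fall of 5 points or more had a median log2 fold change of 0.05 after siSF3B1 in 4OHT. The difference between both classes of exon was not tested.

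After siRBM39 fewer exons moved, and the classes were small. In-frame falls of 5 points or more in 4OHT occurred in 146 genes, of which 44 (30.1%) were lower and 29 (19.9%) higher in count, with a median log2 fold change of −0.02, or −0.04 without replicate 4 of siRBM39-08. In DMSO there were 106 such genes, 32 (30.2%) lower and 18 (16.98%) higher, with a median of −0.05. Frame-shifting falls of that size gave 74 lower (47.1%) and 23 higher (14.6%) of 157 genes in 4OHT, with a median of −0.12, or −0.20 without that library. Spearman's rho was −0.03 for in-frame and −0.14 for frame-shifting exons in 4OHT, and −0.04 and −0.13 in DMSO.

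**Figure D5:**
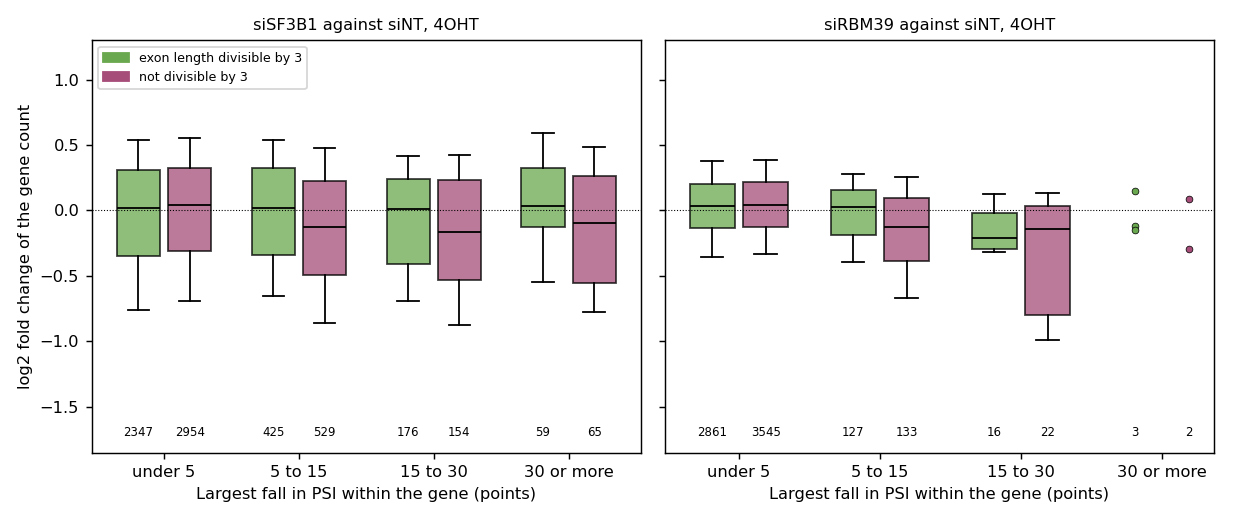
Log2 fold change of the gene count in 4OHT by the largest fall in PSI among the gene's exons (points), for siSF3B1 (left) and siRBM39 (right), with in-frame exons in green and frame-shifting exons in purple; boxes are quartiles, lines medians, whiskers the 10th and 90th percentiles, points single genes where a class has under 10, and numbers below count genes. After siSF3B1 the in-frame medians stay between 0.01 and 0.03, while frame-shifting medians beyond 5 points lie between −0.17 and −0.09.

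Single genes with a strongly skipped in-frame exon went either way. HERPUD1 count rose after siSF3B1 in 4OHT with a log2 fold change of 0.70 (standard error 0.07, edgeR, adjusted p = 9.77e-12), TRIM27 rose by 0.34 (standard error 0.05, adjusted p = 2.78e-07) and ZFAND3 by 0.40 (standard error 0.06, adjusted p = 4.14e-08). TIAL1 rose by 0.16 (standard error 0.04, adjusted p = 0.000519). SP100 had 0.05 (adjusted p = 0.517) and C2orf18 −0.002 (adjusted p = 0.966), neither past the threshold. PSMA4 fell by 0.35 on the log2 scale (standard error 0.06, adjusted p = 1.79e-07) and NAV1 by 0.55 (standard error 0.07, adjusted p = 1.97e-09). A frame-shifting exon of PSMA4 was also 22.6 points lower in these libraries, whereas the largest such fall in NAV1 was 1.91 points. After siRBM39 in 4OHT, TBC1D23 count fell by 0.15 (adjusted p = 0.0385), while SRRT (0.15, adjusted p = 0.0711), TSTA3 (−0.24, adjusted p = 0.0573) and ROBLD3 (−0.32, adjusted p = 0.0677) did not pass. These counts turned on replicate 4 of siRBM39-08: without it TBC1D23 no longer passed (−0.08, adjusted p = 0.118), SRRT had 0.04 (adjusted p = 0.492), while TSTA3 (−0.39, adjusted p = 0.000237) and ROBLD3 (−0.65, adjusted p = 7.89e-09) then passed. In DMSO, where the exons of HERPUD1 and TRIM27 were 68.8 and 63.97 points below siNT and that of PSMA4 was at 62.9 beside 97.9 in siNT, the 3 gene counts had log2 fold changes of 0.10 (adjusted p = 0.234), 0.01 (adjusted p = 0.935) and −0.02 (adjusted p = 0.758).

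Among genes with an in-frame fall of at least 5 points after siSF3B1 in 4OHT, several counts fell strongly. AHCYL1, a regulator of the IP3 receptor, had 148.5 to 160 CPM (median 156) in 4OHT siNT and 34.6 to 49.8 CPM (median 41.9) in 4OHT siSF3B1, a log2 fold change of −1.88 (adjusted p = 2.78e-28). Its largest in-frame fall was 9.24 points, and a frame-shifting exon of AHCYL1 was 29.6 points lower. The groups did not overlap. ELP2, a subunit of Elongator, and COPA, a subunit of the COPI coat, changed by −1.59 (adjusted p = 4.19e-34) and by −1.52 (adjusted p = 3.31e-25) on the log2 scale, with in-frame falls of 16.4 and 19.8 points and frame-shifting falls of 9.42 and 12.9 points.

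Rises of comparable size occurred beside in-frame skipping. MIDN, which brings nuclear proteins to the proteasome, had 119 to 135 CPM (median 126) in 4OHT siNT and 316.5 to 382 CPM (median 342) in 4OHT siSF3B1, a log2 fold change of 1.44 (adjusted p = 1.19e-22) with an in-frame fall of 13.6 points. PRPF3, a protein of the U4/U6 snRNP, had 41.7 to 45.6 CPM (median 43.9) and 100.6 to 112 CPM (median 106.5), a log2 fold change of 1.28 (adjusted p = 8.56e-32), with a fall of 10.6 points. Neither gene overlapped between the groups. SLC3A2, the heavy chain of an amino acid transporter, and GET4, which delivers tail-anchored proteins, rose by 1.13 (adjusted p = 8.92e-15) and 1.07 (adjusted p = 2.88e-10) with falls of 15.9 and 9.01 points.

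After siRBM39 in 4OHT, SLC44A2, a choline transporter-like protein, fell by 0.90 on the log2 scale (adjusted p = 4.53e-28), TBC1D10B, a Rab GTPase-activating protein, fell by 0.81 (adjusted p = 9.03e-07) and TMX3, a thioredoxin-like protein, fell by 0.67 (adjusted p = 7.99e-13), as did COPA by 0.66 (adjusted p = 3.10e-12). BAX, a pro-apoptotic protein, rose by 1.01 (adjusted p = 6.50e-09), TENC1, a tensin, by 0.86 (adjusted p = 3.14e-16), STX8, a SNARE, by 0.60 (adjusted p = 6.75e-06) and PLAUR, the urokinase receptor, by 0.53 (adjusted p = 5.69e-06). Their in-frame falls were between 5.12 points in COPA and 10.9 points in STX8. Frame-shifting exons fell further in TBC1D10B, by 27.1 points beside 9.94 in-frame, and in STX8, by 12.9 points. Without replicate 4 of siRBM39-08 the log2 fold changes of TBC1D10B, BAX and STX8 were −1.08, 0.78 and 0.41, all still past the threshold, and the PSI difference of the COPA exon was −3.99 points, under the minimum of 5 points, in place of −5.12.

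The lists of genes cover families rich in short in-frame exons and machinery of the cell, and they were chosen with results of these data known. Collagens held 415 members in 17 genes, of which 327 were tested and 5 (1.53%) were lower after siSF3B1 in 4OHT, beside 14.2% of all tested members. COL1A1, the main fibrillar collagen of these cells, had a 54-base exon with mean PSI of 99.97 ± 0.0849 in 4OHT siNT and 83.8 ± 2.29 in 4OHT siSF3B1 (SD, n = 8), the largest fall in the list at 16.1 points, and an in-frame exon of COL12A1 was 12.7 points lower. Among EGF, laminin and fibronectin repeat proteins 13 of 183 tested members (7.10%) were lower, among them exons of LTBP1, which holds latent TGF-beta, and NID1 at 17.6 and 15.8 points. In the actin and myosin list 7 of 113 (6.19%) were lower. Kinesin and dynein genes had 4 of 36 (11.1%), with DCTN3 at 19.2 points.

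The other lists hold intracellular machinery, and no list was tested against the rest. Proteasome subunits had 9 of 57 (15.8%) lower, with PSMD14, the deubiquitinase of the lid, at 30.96 points and PSMD11 at 30.4 points beside PSMA4 at 45.7. Splicing factors had 17 of 88 (19.3%), with CDC5L at 33.5, HNRNPA2B1 at 19.3 and PUF60 at 17.6 points. Chromatin remodellers and cohesin had 13 of 53 (24.5%), with exons of SMARCA1 at 21.2 and 18.5 points and GATAD2A at 16.3. Nuclear pore and transport genes had 10 of 68 (14.7%), with POM121 at 31.01, XPO1 at 26.6 and KPNB1 at 21.04 points. Translation factors had 12 of 73 (16.4%), with EIF4G2 at 22.99 points, aminoacyl-tRNA synthetases 8 of 71 (11.3%), with DARS at 24.8, and vesicle coat genes 13 of 113 (11.5%), with EXOC1, a subunit of the exocyst, at 38.1 points. The mitosis list had 2 of 11 (18.2%), NUMA1 at 13.8 and CDC27 at 10.3 points.

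Senescence and secretome genes held 25 members in 11 genes, of which 5 of 19 tested (26.3%) were lower after siSF3B1 and 2 (10.53%) after siRBM39 in 4OHT, beside 14.2% and 2.57% of all tested members. A 33-base exon of HMGA2, a chromatin protein, was 15.4 points lower after siSF3B1, one of 75 bases in MDM2, the ligase that restrains p53, was 10.8 points lower, and one of 102 bases in RELA, a subunit of NF-kappaB, was 11.5 points lower. The RELA exon had a mean PSI of 78.3 in 4OHT siRBM39 and 85.3 in 4OHT siSF3B1, which did not pass between the knockdowns (adjusted p = 0.442). After siRBM39 in 4OHT the other lists had between 0 and 4 members lower.

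Gene counts of the same lists after siSF3B1 in 4OHT are read beside 37.6% lower and 39.4% higher over all genes tested. They were lower in 20 and higher in 2 of 30 actin and myosin genes with members, lower in 17 and higher in 4 of 26 aminoacyl-tRNA synthetases, lower in 16 and higher in 5 of 30 proteasome genes, and lower in 22 and higher in 8 of 39 vesicle coat genes. Splicing factors were lower in 12 and higher in 29 of 45, and senescence and secretome genes in 3 and 6 of 11. Collagens had 8 lower and 4 higher of 17, the EGF, laminin and fibronectin list 12 and 11 of 30, and kinesins and dynein 7 and 7 of 16. Nuclear pore genes and chromatin remodellers each had 11 and 8 of 25, translation factors 12 and 8 of 24, and the mitosis list 4 and 2 of 8. PSMD14, CDC5L and XPO1 had log2 fold changes of 0.01 (adjusted p = 0.747), 0.61 (adjusted p = 5.91e-12) and 0.06 (adjusted p = 0.583), with frame-shifting falls of 28.1, 0.265 and 7.42 points beside their in-frame falls.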

How the data were processed

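RNA-seq was analysed from 48 libraries. Per the labels and methods, the authors aligned reads with vast-tools version 2 and deposited raw counts per gene, cRPKM (RPKM corrected for mappability), and, per splicing event, PSI in percent with inclusion and exclusion reads and a coverage score. Event coordinates lie in GRCh38 although hg19 is named. No GRCh38 genome was used here, so exons were placed in GRCh37 (GENCODE v44) by the lengths of the exon and both flanking introns. The deposited normalised CPM table was not used, and 0 value columns lacked a sample.

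PSI was taken as a fraction, squeezed to 0.01 plus 0.98 of it, put on the logit scale and fitted with limma 3.58.1 with 6 group means. Gene counts were tested with edgeR 4.0.16 (quasi-likelihood, TMM, at least 10000 counts in total), and both were adjusted by Benjamini-Hochberg. limma-voom and DESeq2 1.42.0 in R 4.3.3 were alternatives. The members and lists were chosen with earlier results of these data known. Named exons had a mean of at least 20 reads per library. Among those with groups without overlap they were the 8 largest falls after siSF3B1 and 5 after siRBM39 in 4OHT, the 4 extremes each way between knockdowns, and up to 3 each way between treatments. In each gene list they were up to 3 called members with the largest fall after siSF3B1 in 4OHT, whether or not the groups overlapped. Named genes were, among those called, the 4 largest count changes each way per knockdown in 4OHT among genes with a fall of at least 5 points. Factors of nonsense-mediated decay and some genes that met these rules are not reported here. No library was a duplicate: all 72 pairs sharing siRNA and treatment exceeded sampling noise (lowest chi-square per degree of freedom 2.00). The procedures were tested on simulated data. Python 3.11.15 was used for tables and figures. The depth of a PSI value is its reads, so low-coverage exons carry wider counting error.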

Additional observations from a re-analysis of the deposited data

Results flagged for a closer look

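Replicate 4 of siRBM39-08 in 4OHT lay far above the other 7 libraries of its group in 3 of the 40 sets of 8 libraries examined, where chance gives about 1 in 20. Its count was 158 CPM for TBC1D10B (others 56.1 to 62.4), 331 CPM for BAX (others 120 to 158) and 26.2 CPM for STX8 (others 11.1 to 13.1). Mean PSI over the in-frame exons gave no such library in any of the 6 groups. The part of this library in the results was measured by leaving it out, as given beside them.

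The effect of siSF3B1 on gene count differed between 4OHT and DMSO, by an interaction term in edgeR, for several named genes. The 15 genes examined for either knockdown had been picked for large count changes in 4OHT. That choice favours a larger effect in 4OHT, so the adjusted p-values here are a description and not a test of the treatment. The log2 fold change in 4OHT minus that in DMSO was −0.33 for ELP2 (adjusted p = 4.17e-06), −0.23 for COPA (adjusted p = 0.0450), 0.44 for MIDN (adjusted p = 0.000512) and −0.56 for PRPF3 (adjusted p = 2.70e-12). ELP2 and COPA thus fell further and MIDN rose further in 4OHT, whereas PRPF3 rose less in 4OHT (1.28) than in DMSO (1.84). For siRBM39 the log2 fold change in 4OHT minus that in DMSO was 0.70 for TENC1 (adjusted p = 6.81e-08).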

How the results depend on the processing

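Counts below are for siSF3B1 then siRBM39 against siNT, each in DMSO then 4OHT, then siSF3B1 against siRBM39. A coverage score of at least LOW left 3719 members among 11340 exons tested, in place of 5483 among 16960. Then 436, 488, 64 and 91 members were lower, beside 1227, 1340, 345 and 388 of all exons tested. Between knockdowns 365 and 410 were lower, beside 969 and 1070, and 7 and 12 higher, beside 133 and 144. In 4OHT against DMSO after siSF3B1, 54 were lower and 4 higher, beside 171 and 29. With a minimum difference of 10 points, 331, 428, 36 and 46 members were lower, beside 1039, 1250, 272 and 326 of the 16960 exons. Between knockdowns 264 and 350 were lower, beside 790 and 979, and 4 and 7 higher, beside 110 and 110. Treatment gave 28 lower and 3 higher after siSF3B1, beside 120 and 21, and 5 lower after siRBM39, beside 56. Without the logit, treatment gave 182 lower after siSF3B1 and 28 lower after siRBM39, beside 513 and 134 of all exons tested. At this setting 21 were also higher after siSF3B1. The higher count over all exons is not given, so nothing particular to in-frame exons is read from the 21. With siSF3B1-13 alone, 12 were higher than in siRBM39 in DMSO and 16 higher in 4OHT than DMSO, beside 194 and 64 of all exons tested. With siRBM39-06 alone, 11 were higher after siSF3B1 than siRBM39 in DMSO, beside 193 of all exons, and 6 were lower in 4OHT than DMSO, beside 58. The latter count was 5 with siRBM39-08 alone, beside 47. Leaving out each replicate number in turn gave 54 to 74 lower and 4 to 8 higher in 4OHT than DMSO after siSF3B1, both lowest without replicate 1 and 89 and 8 with all. Over all exons tested it gave 204 to 221 lower and 31 to 42 higher, and 280 and 50 with all libraries. After siRBM39 leaving out replicate numbers gave 6 to 11 members lower, each under the 18 with all libraries by over 1.5 times, and 17 without replicate 4 of siRBM39-08 in 4OHT alone. Over all exons tested these counts were 67 to 86, 108 and 104.

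For genes with a called member, requiring 1.5-fold left 43 lower and 51 higher after siSF3B1 in DMSO, 80 and 49 in 4OHT, 5 and 0 after siRBM39 in DMSO (edgeR; 16 higher without that minimum, 16 by DESeq2 and 15 by limma-voom) and 2 and 3 in 4OHT. With siRBM39-06 alone, 25 were higher in DMSO, and leaving out replicates gave 8 to 21, with 9 without replicate 2 and 8 without replicate 3. Tested genes with a called member numbered 577 and 653 for siSF3B1 and 97 and 130 for siRBM39, each in DMSO then 4OHT. The counts over all genes at these settings are not given, so nothing particular to genes with a called member is read from them. With the mean fall per gene, rho and the median log2 fold change were 0.0635 and 0.0906 (siSF3B1, DMSO), 0.0191 and 0.0348 (4OHT), −0.00552 and −0.107 (siRBM39, DMSO) and −0.0135 and −0.0573 (4OHT). Without genes with a fallen frame-shifting exon they were 0.0389 and 0.120, 0.00148 and 0.0479, and, for siRBM39 in 4OHT, −0.0270 and −0.00749. With siNT PSI of at least 99 the medians were 0.0329 (siSF3B1, 4OHT), −0.0916 (siRBM39, DMSO) and −0.0501 (siRBM39, 4OHT, rho −0.0232). limma-voom gave −0.0433 for siRBM39 in 4OHT, and leaving out replicate 4 of siRBM39-08, chosen after seeing the data, gave −0.0392 (rho −0.0274). The causes were not tested.

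A replicate block moved no count by over 1.5 times (778 members lower after siSF3B1 in 4OHT). Same-numbered libraries had a median correlation of 0.0123 from −0.898 to 0.790, so the numbers do not pair them. No called result changed direction. The rho of siSF3B1 in 4OHT, which is near 0, was −0.01 as reported and positive under the alternatives with the mean fall and without genes with a fallen frame-shifting exon. For single exons and genes, 185 and 39 values fell below the threshold, and 2792 and 746 kept their side of it.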

Other observations

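Skipped in-frame exons were mostly single within a gene. Among 655 genes with a member lower after siSF3B1 in 4OHT, 554 had 1 such exon, 86 had 2 and 15 had 3 or more. CAST, which encodes the calpain inhibitor calpastatin, had 9 of its 25 members lower, SP100 had 4 of 8, and NUP93, of the nuclear pore scaffold, 3 of 6. Of 492 lower members with a measured constitutive neighbour in the same transcript, 75 (15.2%) had a neighbour that was also lower, beside 577 of 6111 (9.44%) over all members with such a neighbour. Neighbouring exons share the reads across their junctions, and the difference was not tested.

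HMGA2, whose 33-base exon was skipped after siSF3B1, had a gene count change of −1.47 (log2, adjusted p = 9.71e-06) after siSF3B1 in 4OHT, and MDM2 and RELA had 0.56 (adjusted p = 5.23e-14) and 0.51 (adjusted p = 2.20e-11). A frame-shifting exon of MDM2 was 21.97 points lower in the same comparison.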
